A study of Mus musculus with 5 samples.

Results

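The 3 Mb of mouse chromosome 13 from 21.5 to 24.5 Mb (mm10) hold the large histone gene cluster, in a lower and an upper block, together with many transfer RNA (tRNA) genes and the vomeronasal receptor genes that lie between the blocks. Its contacts with a bait at the promoter of Pik3r1 come from 4C-seq, in which DNA crosslinked to the bait is cut, ligated to it and sequenced; DpnII was the first and Csp6I the second restriction enzyme. All restriction fragments with a listed position in the interval were taken. They are 7768 of the 284869 fragments of the chromosome that lie more than 1.5 Mb from the bait, called far fragments here, or 2.73% of them. The bait is at position 101766365, which puts the interval 77.3 to 80.3 Mb away. The interval was chosen with the number of covered fragments per 250 or 500 kb window already known, so these numbers are a description and support nothing by themselves.

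The 5 libraries came from C57/Bl6 mice. DP is the single library of CD4+/CD8+ double-positive thymocytes, WT genotype, FACS sorted from mice of 4 weeks. WT1 and WT2 are the replicates of nuclei from skeletal muscle of WT mice, and GRko1 and GRko2 those of KO mice, all aged 10 to 12 weeks. GRko is taken here to mean loss of the glucocorticoid receptor, which is known of the study and not spelled out in the labels. Neither an allele nor a Cre driver is named in the labels, nor whether replicates are separate animals. Tissue, age and preparation differ together between DP and muscle and cannot be told apart. Counts of DNA contacts on a single chromosome carry no cell type markers and do not show the genotype.

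Replication-dependent histone genes supply the H1, H2A, H2B, H3 and H4 proteins that package newly made DNA, and are transcribed mainly in S phase, in a nuclear compartment called the histone locus body. tRNA genes are transcribed by RNA polymerase III. Vomeronasal type 1 receptors (Vmn1r) detect pheromones in sensory neurons of the nose, and their gene arrays are silent in most other tissues. DP thymocytes are immature T cells of the thymic cortex.

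Of the 278 RefSeq genes of the interval, 56 have histone symbols, 79 are tRNA genes, 75 are Vmn1r genes or pseudogenes and 8 are olfactory receptor genes. The blocks were divided at the widest gap between neighbouring histone genes, 1487386 bp. The lower histone block, chr13:21715711-22043658, holds 24 histone and 31 tRNA genes. The upper histone block, chr13:23531044-23934913, holds 32 histone genes. In the gap, Vmn1r genes span chr13:22057168-23269501, and a stretch with 45 tRNA genes follows from there to the upper block.

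Promoter sequences describe genes of the interval, not its covered fragments in general. RefSeq promoter windows (GRCm38.p6, the same coordinates as mm10) were at hand for 51 of the 56 histone genes, 33 of the 75 Vmn1r genes and none of the tRNA genes. Each window runs from 250 bases before to 50 after an annotated start. Among the histone and Vmn1r genes only H4c1 and H4c8, both for histone H4, had the midpoint of a covered fragment in their window, so these are printed first. The 250 bases before the start are given 5' to 3' on the gene's strand, with DpnII sites in capitals. H4c1 lies on the minus strand (chr13:23761250-23761499) and H4c8 on the plus strand (chr13:23530794-23531043).

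H4c1: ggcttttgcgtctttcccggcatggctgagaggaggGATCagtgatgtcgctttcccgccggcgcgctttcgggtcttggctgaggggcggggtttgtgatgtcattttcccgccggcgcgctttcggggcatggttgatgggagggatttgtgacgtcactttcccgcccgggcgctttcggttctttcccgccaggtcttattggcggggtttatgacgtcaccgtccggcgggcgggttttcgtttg

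H4c8: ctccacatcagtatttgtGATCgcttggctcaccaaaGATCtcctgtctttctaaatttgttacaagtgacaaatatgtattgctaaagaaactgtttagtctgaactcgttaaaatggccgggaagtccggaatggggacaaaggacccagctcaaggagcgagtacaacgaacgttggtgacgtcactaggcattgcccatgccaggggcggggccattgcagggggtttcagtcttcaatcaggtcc

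The stretch from H4c1 is 61.6% G or C and has 27 CpG dinucleotides. Its DpnII fragment, chr13:23761224-23761463, carried 16 reads in DP and 0 in each muscle library. The stretch from H4c8 is 48.4% G or C with 9 CpG. The fragment with midpoint 23531071, which lies in its window and in that of the neighbouring gene Gm11335, carried 746 reads in WT2 and 0 in the other libraries.

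The next pair sets an H2B gene with a fragment of 10 or more reads within 2 kb in DP and in GRko1 beside the Vmn1r gene nearest to the most-read fragment of WT2. H2bc11 (chr13:22042948-22043197) and Vmn1r195 (chr13:22278067-22278316) are both on the plus strand. Capitals mark matches on either strand to the CCAAT box, the TATA box or the octamer, whose letters are given after the sequences.

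H2bc11: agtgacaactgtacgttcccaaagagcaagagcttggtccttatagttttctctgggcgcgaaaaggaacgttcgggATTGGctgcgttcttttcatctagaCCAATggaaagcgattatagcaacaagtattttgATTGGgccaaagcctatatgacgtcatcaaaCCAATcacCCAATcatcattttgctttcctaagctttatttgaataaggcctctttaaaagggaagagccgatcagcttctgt

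Vmn1r195: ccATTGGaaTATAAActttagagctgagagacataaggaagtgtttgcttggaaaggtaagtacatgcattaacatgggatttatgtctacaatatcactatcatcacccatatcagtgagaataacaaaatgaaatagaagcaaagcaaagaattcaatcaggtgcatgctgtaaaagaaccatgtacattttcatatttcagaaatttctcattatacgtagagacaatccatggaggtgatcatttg

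H2bc11 had 5 CCAAT matches and no match to the other motifs, with 42.4% G or C and 9 CpG. Vmn1r195 had 1 CCAAT and 1 TATA box match, both near the far end of the stretch from its start, with 34.0% G or C and 1 CpG. The CCAAT box was searched as those letters. In whole 300-base windows it occurred in 84.6% of 52 histone promoters, 36.4% of 33 Vmn1r promoters and 37.4% of all 32851 promoters of the table. By symbol it occurred in every H1, H2A, H2B and H3 window (6, 13, 14 and 7 windows) and in 4 of the 12 H4 windows. Families went by symbol alone here and below, so H4bc24 goes with H4, though it lies beside the H2A gene H2ac24 and may be an H2B gene. The TATA box was searched as TATAAA. It occurred in 59.6% of histone, 27.3% of Vmn1r and 13.6% of all promoters. The octamer, a known element of H2B promoters, was searched as ATTTGCAT. It occurred in 6 of the 14 H2B and 5 of the 13 H2A windows and in 0 of the H1, H3 and H4 windows, against 1.74% of all promoters. H2A and H2B genes often lie head to head, and their windows then share bases. Motifs were counted separately, and a match is one of letters only.

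**Figure D1:**
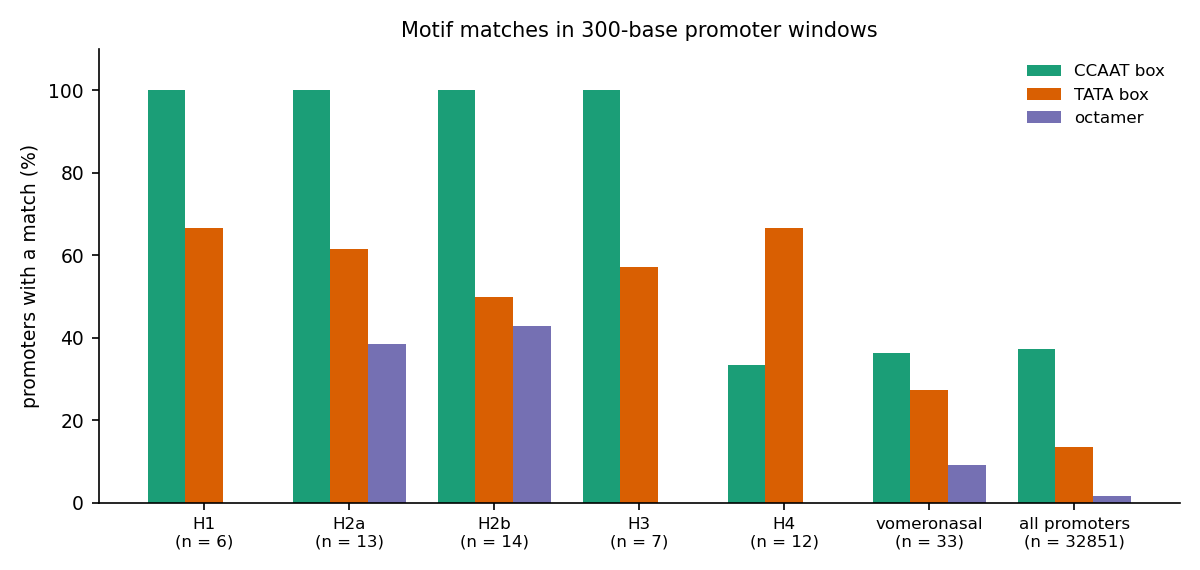
Share of 300-base promoter windows with a match on either strand to the CCAAT box, TATA box or octamer (vertical axis, percent), by gene family, with the number of windows below each. H1, H2A, H2B and H3 reach 100% for the CCAAT box against 37.4% of all promoters, and among histone windows of this table the octamer is found in H2A and H2B.

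Both enzymes meet these genes unequally. A Csp6I site (letters GTAC) was in 71.2% of histone, 33.3% of Vmn1r and 35.8% of all promoter windows. A DpnII site (letters GATC) was in 30.8%, 72.7% and 48.0%. The lower histone block had 2.50 fragments per kb, the upper block 2.28 and the Vmn1r span 2.82, so coverage is given per fragment. Whether reads from these repeated gene families align to unique places was not tested.

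A fragment with at least 1 read is called covered. The libraries held 1317351 to 8993436 reads on the chromosome and 2434 to 9363 covered far fragments. In the interval 149 fragments were covered in DP, 72 in WT1, 60 in WT2, 37 in GRko1 and 55 in GRko2. As a share of covered far fragments, DP had 1.59% (95% Wilson interval 1.36 to 1.87). WT1 had 1.15%, WT2 1.99%, GRko1 1.33% and GRko2 2.26%. All of these lay below the 2.73% of far fragments that the interval makes up, although the Wilson interval of GRko2 (1.74 to 2.93) included it. The shares were not adjusted for distance from the bait, and the 3 Mb on either side, given below, also held less than 2.73% in each library. The group means of the interval's share were 1.57% ± 0.589 for WT and 1.79% ± 0.660 for GRko muscle (SD, n = 2 each). The libraries of both genotypes overlapped. Wilson intervals cover counting error only and leave out the spread between libraries. PCR copies carry no molecular identifiers.

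The muscle shares split by replicate number, which is also the read length after removal of the bait: 29 nt in WT1 and GRko1, as in DP, and 23 nt in WT2 and GRko2. Fragments with 1 to 9 reads made up 64.4% of covered far fragments in WT2 and 65.2% in GRko2, against 30.6% to 36.4% in the other 3 libraries. Among these low-read fragments the interval's share was 2.52% (1.91 to 3.31) in WT2 and 2.90% (2.18 to 3.85) in GRko2, and both ranges include 2.73%. It was 1.62% in DP, 1.20% in WT1 and 1.28% in GRko1. Among fragments with 10 or more reads the share was 1.58% in DP, 1.13% in WT1, 1.02% in WT2, 1.35% in GRko1 and 1.06% in GRko2. Both 23 nt libraries were thus above the 29 nt libraries for low-read fragments and below them for fragments with 10 or more reads. GRko minus WT was 0.173 percentage points at 29 nt and 0.274 at 23 nt for all covered fragments, and 0.222 and 0.0400 for those with 10 or more reads. The part of read length in the low-read fragments was not tested, and both counts are given below.

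**Figure D2:**
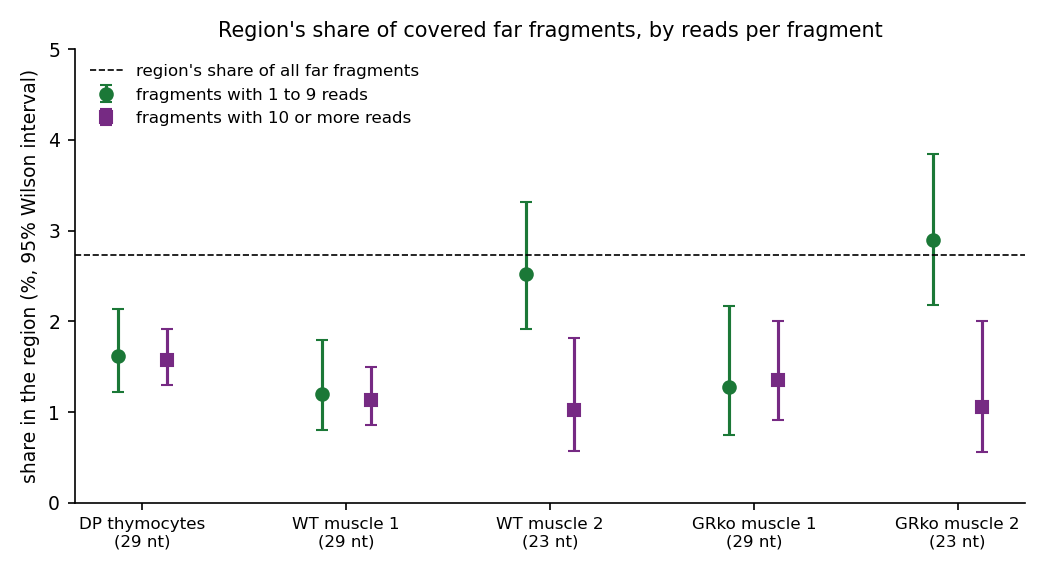
Share of covered far fragments that lie in the interval (vertical axis, percent) for fragments with 1 to 9 reads (circles) and with 10 or more (squares) in each library, with 95% Wilson intervals; the dashed line is the interval's 2.73% of all far fragments. Low-read fragments of the 23 nt libraries sit near the line, and all points for 10 or more reads lie between 1.02% and 1.58%.

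Within the interval the DP profile was uneven. In windows of 250 kb, DP had 23 covered fragments in the window from 21.75 Mb, in the lower histone block. It had 43 in that from 23.5 Mb, which holds the end of the tRNA stretch and the start of the upper block. The whole tRNA stretch had 21 in DP, and the window that ends at 23.5 Mb had 9. Some of the 43 therefore lay in the tRNA stretch, outside the upper block. DP had 2, 0, 0 and 2 in the windows from 22.25, 22.5, 22.75 and 23.0 Mb, in the Vmn1r array. The window from 21.75 Mb had 6 in WT1, 6 in WT2, 3 in GRko1 and 3 in GRko2. The window from 23.5 Mb had 3 in WT1, 8 in WT2, 7 in GRko1 and 6 in GRko2. Relative to all far fragments, the window from 21.75 Mb stood at 1.09 in DP and 0.427 to 0.882 in muscle, and that from 23.5 Mb at 2.18 in DP and 0.228 to 1.26 in muscle. The windows from 22.5 and 22.75 Mb hold 1463 fragments, and the count of 0 in DP allows up to 2.05 per 1000 fragments. Muscle had 6 there in WT1, 3 in WT2, 2 in GRko1 and 4 in GRko2, so coverage was low in every library.

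**Figure D3:**
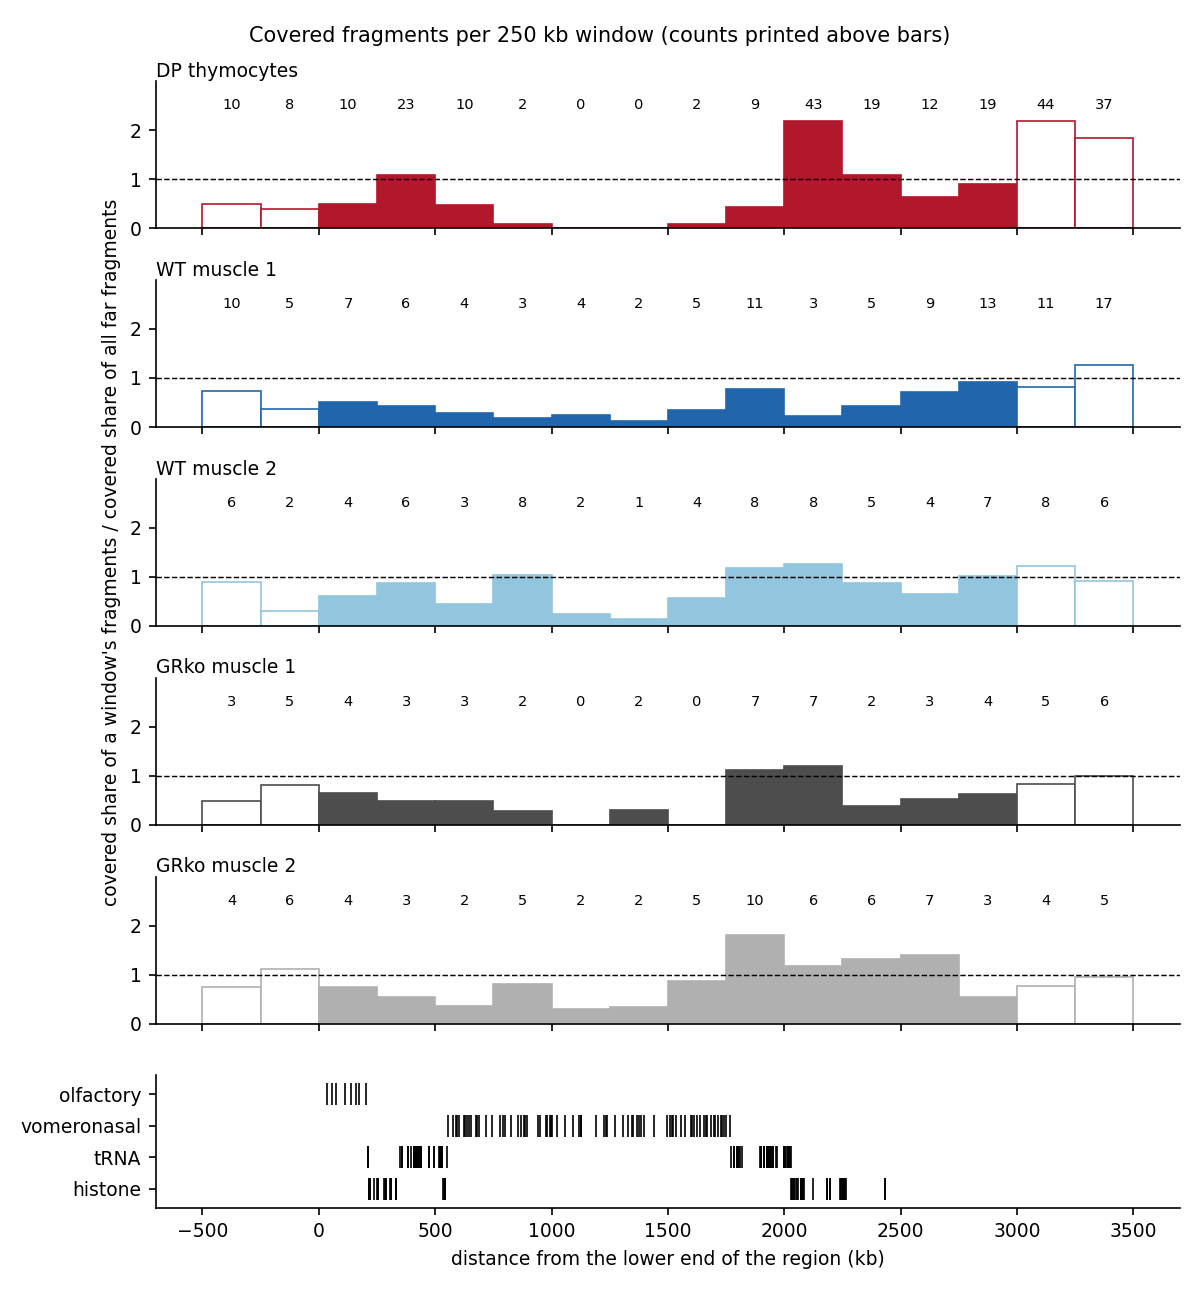
Covered share of each 250 kb window's fragments divided by that of all far fragments (vertical axes), against distance from the lower end of the interval in kb, for the 5 libraries; numbers are covered fragments, open bars are windows just outside, the dashed line is the far mean, and ticks at the bottom are gene starts by class. In DP the bars reach 23 covered fragments in the lower histone block and 43 in the window where the upper block begins. That window also holds the end of the tRNA stretch. In the receptor array the DP bars fall to 0.

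The values on either side of the interval's limits were as follows. The last window inside, from 24.25 Mb, had 19 covered fragments in DP, 13 in WT1, 7 in WT2, 4 in GRko1 and 3 in GRko2. The first window above it had 44 in DP, 11 in WT1, 8 in WT2, 5 in GRko1 and 4 in GRko2. Relative to all far fragments DP went from 0.893 inside to 2.18 outside, where it was as high as in the window from 23.5 Mb. At the lower end, the last window outside had 8 in DP, 5 in WT1, 2 in WT2, 5 in GRko1 and 6 in GRko2. The first window inside had 10 in DP, 7 in WT1 and 4 in each of the others. The 3 Mb below the interval held 1.42% of covered far fragments in DP, 1.38% in WT1, 1.42% in WT2, 1.61% in GRko1 and 2.01% in GRko2. The 3 Mb above it held 1.09% in DP, 1.17% in WT1, 1.72% in WT2, 0.824% in GRko1 and 2.05% in GRko2, so GRko2 was highest there as in the interval. Few fragments lay at the limit of 10 reads, with 0 to 2 fragments of 9 reads and 0 to 1 of 10 reads in a library.

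In the upper histone block DP had 49 of 921 fragments covered, or 53.2 per 1000 (95% Wilson interval 40.5 to 69.6). Muscle had 8 in WT1, 10 in WT2, 7 in GRko1 and 10 in GRko2. Divided by the covered share of all far fragments of the same library, which allows for the number of covered fragments, the block stood at 1.62 in DP. It stood at 0.396 in WT1, 1.02 in WT2, 0.776 in GRko1 and 1.27 in GRko2. Counting fragments with 10 or more reads, it stood at 1.59 in DP, 0.428 in WT1, 1.15 in WT2, 0.697 in GRko1 and 0.729 in GRko2. DP was the highest library on both counts. With 10 or more reads the muscle values rest on 2 to 6 fragments in a library, and no interval was computed for the relative values.

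In the lower histone block DP had 31 of 819 fragments covered (37.9 per 1000, 26.8 to 53.2), WT1 9, WT2 7, GRko1 6 and GRko2 3. Relative to all far fragments the block stood at 1.15 in DP, 0.501 in WT1, 0.806 in WT2, 0.748 in GRko1 and 0.429 in GRko2. For fragments with 10 or more reads it stood at 1.30 in DP, 0.401 in WT1, 0.646 in WT2, 0.784 in GRko1 and 0.410 in GRko2. DP again lay above all 4 muscle libraries on both counts, where muscle had 1 to 5 fragments of 10 or more reads in a library.

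Counting every covered fragment, the Vmn1r span was the least covered segment relative to its fragments in DP, WT1, WT2 and GRko1; in GRko2 the lower histone block was lower. It had 7 of 3420 fragments covered in DP (2.05 per 1000, 0.992 to 4.22), 16 in WT1, 17 in WT2, 6 in GRko1 and 16 in GRko2. Relative to all far fragments it stood at 0.0623 in DP, 0.213 in WT1, 0.469 in WT2, 0.179 in GRko1 and 0.548 in GRko2, so DP was lowest. With 10 or more reads 1 fragment was covered in DP, 9 in WT1, 1 in WT2, 2 in GRko1 and 1 in GRko2. WT1, read at the same length as DP, thus had more covered fragments in the span from fewer covered far fragments.

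As a whole, the tRNA stretch beside the upper block differed from the histone blocks in its order of libraries. It had 21 of 666 fragments covered in DP, 10 in WT1, 9 in WT2, 9 in GRko1 and 10 in GRko2. Relative to all far fragments it stood at 0.959 in DP, 0.685 in WT1, 1.27 in WT2, 1.38 in GRko1 and 1.76 in GRko2. With 10 or more reads DP stood at 1.00 and muscle between 0.790 and 1.69, so DP lay inside the muscle range on both counts. Above the upper block, over Scgn, Carmil1 and Cmah, DP stood at 0.716, inside the muscle range of 0.525 to 1.03.

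**Figure D4:**
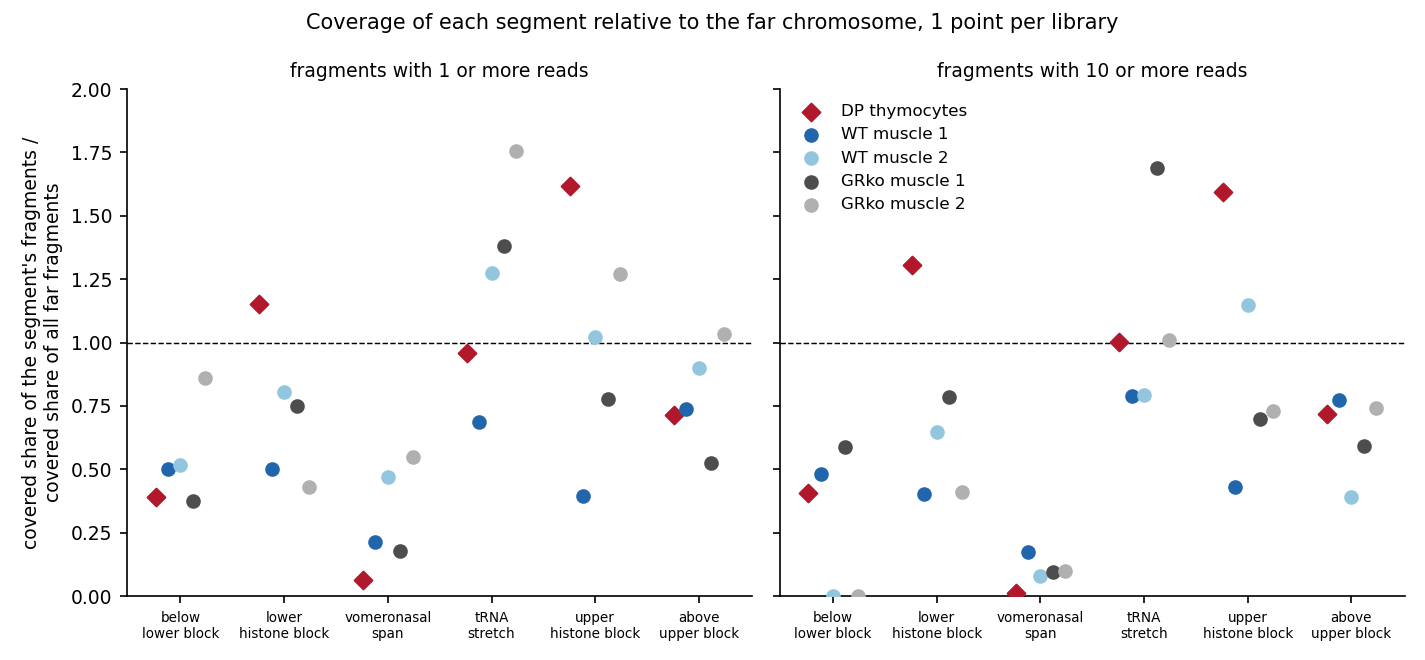
Covered share of each segment's fragments divided by the covered share of all far fragments (vertical axis), 1 point per library (diamonds, DP; circles, muscle), for fragments with 1 or more reads (left) and 10 or more (right); the dashed line is the far mean. DP sits highest in both histone blocks (1.15 and 1.62 at left) and lowest in the Vmn1r span (0.0623 at left). For the tRNA stretch as a whole it lies inside the muscle range.

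Over both histone blocks DP had 46.0 covered per 1000 fragments in the blocks and 7.28 between them, a ratio of 6.32 (95% interval on the log scale 4.17 to 9.58). The ratio was 1.49 in WT1 and in WT2, 2.05 in GRko1 and 1.18 in GRko2. With 10 or more reads it was 7.94 in DP, 1.45 in WT1, 4.74 in WT2, 2.11 in GRko1 and 2.37 in GRko2, where WT2 and GRko2 rest on 3 fragments each between the blocks. Against the Vmn1r span alone, and with 1 or more reads, it was 22.5 in DP, 2.09 in WT1, 1.97 in WT2, 4.26 in GRko1 and 1.60 in GRko2. DP had the highest ratio under each of these counts.

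The genotypes were compared in windows of 500 kb, fitted over all far windows of the chromosome. In the interval 4 of 6 windows held at least 10 covered fragments in at least 2 muscle libraries. The log2 ratio of GRko over WT muscle was 0.07 ± 0.734 (SE, n = 2 libraries in each group) from 21.5 Mb and 0.46 ± 0.421 from 23.0 Mb. It was 0.74 ± 0.527 from 23.5 Mb and -0.13 ± 0.449 in the window above that. With edgeR's quasi-likelihood test 0 of the 4 windows were called, each with a Benjamini-Hochberg adjusted p of 0.994, against 0% of the 165 windows tested. At an unadjusted p under 0.05 there were 0 of the 4 and 7 of the 165, and DESeq2 called 0. Each of the 4 ratios changed sign when some single library was left out; that from 23.5 Mb became -0.09 without WT1. At these counts, differences of the size of the SE were not detectable.

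For DP over WT muscle 5 of the 6 windows could be tested; the window from 22.5 Mb, in the receptor array, held too few covered fragments. The log2 ratio was 0.48 ± 0.423 (SE) from 21.5 Mb, -0.68 ± 0.851 from 22.0 Mb, -1.37 ± 0.529 from 23.0 Mb, 1.49 ± 0.384 from 23.5 Mb and -0.11 ± 0.371 in the window above that. The median of the 5 was -0.11, and that of all windows tested -0.12. The window from 23.5 Mb alone was called by edgeR, as higher, beside 10.8% of 185 windows called in all, 3.24% higher and 7.57% lower. As the interval was chosen on these counts, nothing is read from that call. The ratio of this window, which holds the whole upper histone block, was 0.62 without WT1 and no longer called, and 2.35 without WT2, which leaves the WT library of the same read length as DP. The window also takes in the end of the tRNA stretch, outside the block. By coverage per fragment it ranked 46 of 230 far windows in DP, 193 in WT1, 81 in WT2, 112 in GRko1 and 66 in GRko2. The fit takes the single DP library to vary as muscle libraries do.

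**Figure D5:**
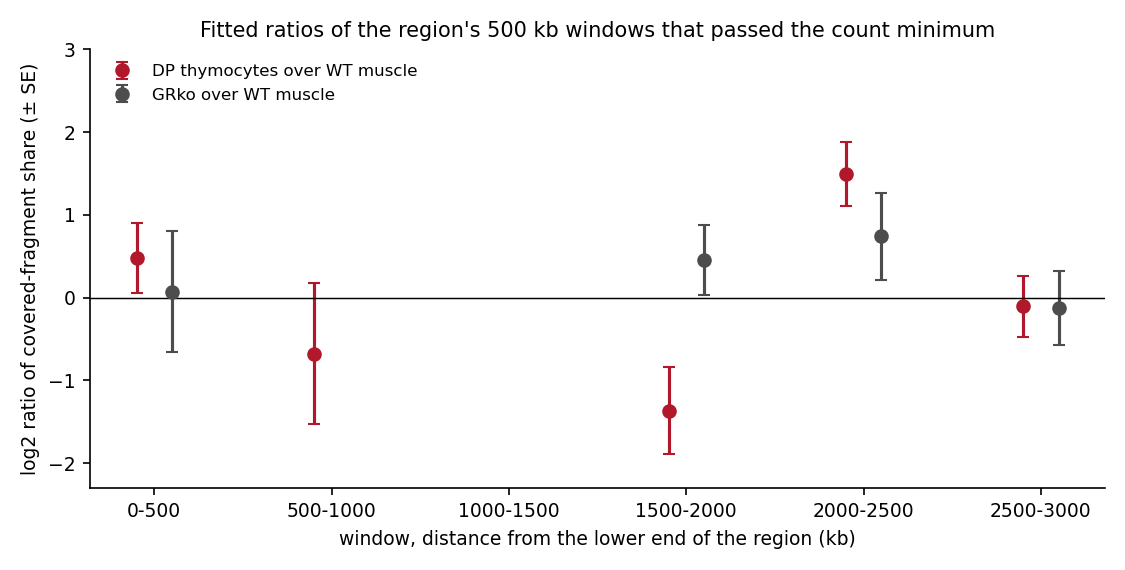
Fitted log2 ratios of covered-fragment share (vertical axis, ± SE) of the interval's 500 kb windows, by distance from its lower end, for DP (red) and GRko muscle (grey) over WT muscle; windows under the count minimum have no point. The DP ratio is -1.37 in the window that ends with part of the tRNA stretch and 1.49 in the next one up, and no GRko ratio was called.

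Within the histone blocks, coverage in DP beside the histone genes was set against coverage farther away. In the upper block 45.5 per 1000 fragments were covered within 2 kb of a histone gene (13 of 286) and 56.7 farther away (36 of 635). In the lower block the values were 36.1 (6 of 166) and 38.3 (25 of 653), and Wilson intervals overlapped in both blocks. Fragments of 10 or more reads numbered 8 and 25 in the upper block, and 6 and 18 in the lower block, where they were relatively more frequent near the genes (1.61 against 1.23 relative to all far fragments). Over the whole interval, fragments within 2 kb of tRNA genes were covered at 50.0 per 1000 in DP, those near histone genes at 42.4 and those near Vmn1r genes at 2.33. In the 4 muscle libraries the ranges were 10.0 to 16.0, 4.24 to 12.7 and 2.33 to 5.83. These values grow with the number of covered fragments of a library. Relative to all far fragments, histone genes stood at 1.29 in DP, 0.193 in WT1, 1.20 in WT2, 1.08 in GRko1 and 0.496 in GRko2. tRNA genes stood at 1.52 in DP, 0.730 in WT1, 1.51 in WT2, 1.22 in GRko1 and 1.17 in GRko2, and DP and WT2 were nearly equal. Vmn1r genes stood at 0.0709 in DP, 0.213 in WT1, 0.330 in WT2, 0.238 in GRko1 and 0.682 in GRko2, and DP was lowest. At 10 or more reads DP was highest near histone genes (1.41, next GRko1 at 1.36) and near tRNA genes (22 of 500 fragments in DP; next WT2 at 1.59), and near Vmn1r genes 3 muscle libraries had none.

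By gene, 18 of 56 histone genes had a covered fragment within 2 kb in DP, 3 in WT1, 6 in WT2, 9 in GRko1 and 2 in GRko2. The 18 came from every family, with 2 of 6 H1, 4 of 15 H2A, 5 of 14 H2B, 3 of 9 H3 and 4 of 12 H4 genes by symbol. Neighbouring genes share fragments, so these are not separate contacts, and counts of genes and fragments here and below are not scaled for the larger number of covered fragments in DP. H2bc4, an H2B gene, was the one histone gene with fragments of 10 or more reads in 3 libraries: 105 reads in DP, 567 in WT2, 18 in GRko1 and 0 in WT1 and GRko2. H2bc6, annotated over 37455 bp, had 6 covered fragments in DP, 1 in WT1, 1 in WT2, 0 in GRko1 and 1 in GRko2. H2bc22 had 3 covered fragments with 1859 reads in DP and 0 in muscle. H2ac22 had 662 reads in DP and 98 in GRko1, and H2ac11 and H2bc11 share their nearby fragments, 1 with 161 reads in DP and another with 107 in GRko1. None of these genes was covered in all 5 libraries.

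H4c12 had a fragment of 771 reads in DP and 1 read in WT2, and H2ac10 and H3c8 shared 3 reads in DP and 42 in GRko1. Among tRNA genes 32 of 79 had a covered fragment within 2 kb in DP, 9 in WT1, 13 in WT2, 9 in GRko1 and 6 in GRko2. n-TTagt1, for threonine, had 2 such fragments with 2263 reads in DP and 1 with 124 in WT1. n-TSgct4, for serine, had 3 with 27 reads in DP and 1 with 32 in GRko1. n-TMcat9, for methionine, had 1 with 22 reads in DP and 2 with 747 in WT2, the same fragments as H4c8 next to it. n-TLcag10, for leucine, had none in DP, 26 reads in WT1 and 367 in GRko1. Some had many reads in 2 libraries: n-TDgtc12 and n-TSaga8 each had 231 in DP and 710 in WT2. No tRNA gene had fragments of 10 or more reads in more than 2 libraries.

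Of the 75 Vmn1r genes and pseudogenes 2 had a covered fragment within 2 kb in DP, 4 in WT1, 3 in WT2, 2 in GRko1 and 5 in GRko2. With 10 or more reads there were 4 in any library, each annotated as a pseudogene. Vmn1r-ps129 had 800 reads in DP. In WT1, Vmn1r-ps92 had 162, Vmn1r-ps132 had 14 and Vmn1r-ps133 had 34. Of the 8 olfactory receptor genes below the lower block, 2 had a covered fragment in DP and 2 in WT1.

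Of the other genes, 17 fixed by name lay in the interval. A covered fragment lay within 2 kb of 14 of them in DP, 6 in WT1, 5 in WT2, 6 in GRko1 and 9 in GRko2. Hfe, which limits iron uptake and lies among the upper histone genes, had 3 covered fragments with 5077 reads in DP, 1 with 20 in GRko1 and none in the other libraries. Prss16, a serine protease of the thymic cortex, had 3 with 3748 reads in DP and 0 in muscle, and Pom121l2 had 2 with 155 reads in DP and 0 in muscle. Zfp184, a zinc-finger gene, had 4 in DP and 1 in GRko1. Btn1a1, a butyrophilin of milk fat, had 4 in DP and 1 in GRko2. These 5 genes, named from the 17, had most of their covered fragments in DP. DP also had the most in the whole interval, 149 against 37 to 72 in a muscle library, and the gene counts are not scaled for that.

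The transporter genes Slc17a1, Slc17a2, Slc17a3 and Slc17a4 had 4, 2, 1 and 2 covered fragments in DP and 0, 3, 1 and 0 in WT1. They had none in WT2 and at most 1 each in GRko1 and GRko2. Trim38, an E3 ubiquitin ligase, had 2 in DP and 1 in WT2. Zkscan8 and Zfp322a, both zinc-finger genes, had 1 in DP and 1 in each of 3 muscle libraries. Scgn, a calcium-binding protein gene, had 0 in DP and 2 each in WT2 and GRko2. Btn2a2 had 1 fragment, in GRko2, and Abt1 had none. The long genes Carmil1 and Cmah were covered in all 5 libraries. Carmil1, a regulator of actin capping annotated over 268322 bp, had 12 in DP, 9 in WT1, 3 in WT2, 4 in GRko1 and 8 in GRko2. Cmah, the sialic acid hydroxylase, had 13 in DP, 10 in WT1, 5 in WT2, 2 in GRko1 and 2 in GRko2.

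Single fragments rarely recurred between libraries. Of 355 fragments of the interval covered in any library, 16 (4.51%) were covered in 2 or more, against 8.81% of covered far fragments. At 10 or more reads 3 of 191 recurred (1.57%, against 5.90%). The shares were not adjusted for density of coverage, which was lower in the interval than over all far fragments in every library. In DP it was 19.2 against 32.9 covered per 1000 fragments, and in GRko2 7.08 against 8.54. Nothing is therefore read from the lower recurrence. The fragment with midpoint 21676075, 1095 bp from Olfr1360, had 98 reads in DP and 58 in WT1. That at 23500847, 110 bp from n-TSaga7, had 226 in DP and 30 in GRko1. That at 23435170, 498 bp from Gm40833, had 13 in DP and 30 in WT1. Each of the 3 was shared by DP and a muscle library of its read length.

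Reads were concentrated in few fragments. The most-read fragment was at 22763745 in the Vmn1r span, with 3831 reads in GRko1 and 0 elsewhere. One at 23703734 within Hfe had 3757 reads in DP, and one at 23715986, 5132 bp from Hfe, had 3292 in WT1. One at 22271032, 7285 bp from Vmn1r195, had 3183 in WT2. The most-read fragment of a library held 8.71% of the interval's reads in DP, 19.1% in WT1, 49.8% in WT2, 30.2% in GRko1 and 63.1% in GRko2.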

How the data were processed

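The authors deposited raw read counts per DpnII fragment of chromosome 13 for each of the 5 libraries, with the bait's position in a header line. The submitters' processing notes name bcl2fastq, Bowtie 1.0.0 and mm10; how reads were assigned to fragments is not stated in them. Listed positions were checked to be fragment midpoints: within 0.5 bp for 344 of 344 pairs of neighbouring DpnII sites in RefSeq promoter sequences. Each file lists all 7768 fragments of the interval.

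Covered fragments per 500 kb window, kept with 10 or more in 2 or more libraries, were fitted with edgeR 4.0.16 in R 4.3.3 (quasi-likelihood test, Benjamini-Hochberg at 0.05), with covered far fragments as library size. The genotype fit used the 4 muscle libraries and the thymocyte fit all 5. The SE of an edgeR ratio was derived from the test, as the size of the log2 ratio over the square root of the F statistic. The scripts were tested on simulated data in which all libraries had the same spread. Such data cannot test that assumption for the single DP library. DESeq2 1.42.0 and other settings were alternatives. Deviations of same-numbered muscle libraries correlated at 0.334 over windows, and at -0.154 with 10 or more reads.

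Gene classes went by symbol. Named genes were up to 10 per class with fragments of 10 or more reads within 2 kb in the most libraries, and 17 of 24 listed others that lay in the interval. Named fragments were chosen likewise, and the printed promoters for the reasons given beside them, after values were seen. The interval, genes and lists were chosen with earlier results of these data known. Here p-values rest on the spread between muscle libraries, which may be technical. The single DP library has no spread of its own.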

Additional observations from a re-analysis of the deposited data

How the results depend on the processing

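The DP share of the interval was 1.10% with all covered fragments of the chromosome as denominator, and by reads the share was 0.753% in WT and 0.872% in GRko muscle. With 1 replicate left out it was 1.15% to 1.99% in WT and 1.33% to 2.26% in GRko muscle. The mean ratio of histone blocks to the interval between them was 3.09 in WT and 2.24 in GRko muscle with 10 or more reads, and 1.23 in WT muscle by 250 kb windows. With the 848 most-read far fragments of each library it was 4.34 in WT and 1.90 in GRko muscle. These values rest on 1 to 5 fragments between the blocks in a library. DP had 10 in the blocks and none between them (at least 7.90, with a floor of 3 fragments). The floor was applied to DP alone, so DP and muscle are not on one footing here. Against the Vmn1r span alone, a choice made after seeing the data, the ratio was 22.5 in DP, 2.03 in WT and 2.93 in GRko muscle. With 10 or more reads this became 112, 7.10 and 6.88, where DP, WT2 and GRko2 each rest on 1 fragment in the span. Leaving out 1 replicate gave 1.49 in WT and 1.18 to 2.05 in GRko muscle. No alternative called a far window between the genotypes, the fit with the replicate number as a block (0) included. Between DP and WT muscle 20 were called, 12 with 250 kb windows, 12 with no filter, 0 with DESeq2 (11 at an unadjusted p under 0.05), 0 with equal numbers of fragments (3 unadjusted), 23 with the replicate block, and 7 to 33 with 1 library left out (7 without WT1, 7 without WT2, 33 without GRko1, 31 without GRko2). The window from 23.5 Mb kept a ratio above 0 in all 10 alternatives that tested it and was called in 6; its edgeR adjusted p was 0.428 without WT1, 0.0516 with no filter and 0.0759 against all muscle libraries, and DESeq2 gave 0.727. With no filter the window from 22.5 Mb was also tested and was called lower in DP (edgeR adjusted p 0.0129); DP had 0 covered fragments there, so its fitted ratio is no bound. The cause was not tested. Depth limits these results, with 37 to 149 covered fragments of the interval in a library.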

Other observations

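WT2 and GRko2, the libraries read at 23 nt, shared 6 covered fragments of the interval, 10.0% of those of WT2 and 10.9% of those of GRko2. Over all far fragments this pair shared 7.68% and 9.53%. Each other pair of libraries shared at most 2 fragments of the interval. The median covered fragment of the interval had 1 read in both, against 25 in DP, 22.5 in WT1 and 42 in GRko1.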
